A study of Mus musculus with 4 samples.

Results

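The 4 Hox clusters were covered by 428 probes of a mouse CpG island array that carried 88737 probes in all, of which 85850 lay on autosomes. Members were all non-control probes whose position on the mm9 build fell in chr6:52100000-52215000 (HoxA, 132 probes), chr11:96050000-96240000 (HoxB, 106 probes), chr15:102740000-102870000 (HoxC, 80 probes) or chr2:74490000-74610000 (HoxD, 110 probes). The rule uses position alone, but the windows were chosen with earlier results of these data known. Neighbouring probes with gaps of at most 1000 bp were joined into islands, which gave 18 islands in HoxA, 16 in HoxB, 14 in HoxC and 18 in HoxD, 66 of 14178 autosomal islands. Of the 66, 63 held at least 3 probes.

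Genomic DNA came from whole brains of the offspring of C57BL/6J dams on postnatal day 1 (the strain field of the labels gives C57BL/6). The dams had received titanium dioxide nanoparticles at 100 ug per mouse (TiO2-H) or the same vehicle freed of particles (Sham), sprayed into the trachea once. The sample names place this on gestational day 14 and the treatment protocol on day 10.5. Each of the 4 groups (male and female Sham, male and female TiO2-H) was 1 pool of 2 offspring from each dam, with 5 dams behind the Sham pools and 6 behind the TiO2-H pools, and each pool was run on 1 array. No value below therefore has a replicate of its own group, and the fits that join the sexes measure only the spread between 4 arrays. In whole-brain DNA, methylation in fewer cells and weaker methylation per cell cannot be told apart.

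Methylated fragments were pulled down with an antibody that binds 5-methylcytosine (MeDIP, methylated DNA immunoprecipitation) and labelled with Cy5, and input DNA was labelled with Cy3. The level of a probe is the log2 ratio of processed Cy5 to Cy3, minus the median of the autosomal probes of that array, so that 0 is the middle of all autosomal islands on the array. A probe is called MeDIP-positive where the scanner software rated its Cy5 well above background. Where Cy5 is not rated so, the level is not a firm value, and a dim Cy5 signal over a weak input still gives a high ratio.

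The arrays differed from each other as a whole. MeDIP-positive probes made up 51.2% of all probes on the male Sham array and 59.4% on the female Sham array, but 25.3% and 33.0% on the TiO2-H arrays labelled male and female. The spread of log2 ratios (median absolute deviation) was narrower on the female Sham array, at 0.60, than on the others, which ranged from 0.91 to 1.08. The median X-linked input signal, set against that of autosomal probes, was -0.75 on the log2 scale on the male Sham array and 0.03 on the female Sham array, but 0.03 on the TiO2-H array labelled male and -0.74 on the TiO2-H array labelled female, which goes against both TiO2-H sex labels. Counts of changed probes between exposures are therefore given by label and also crossed, with the TiO2-H array of like X-linked input. Folds of islands are given by label only. The arrays of each labelled sex shared 1 slide, and each exposure held 1 fixed position on the slides, so exposure and position cannot be told apart.

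Hox genes encode homeodomain transcription factors that give cells their position along the head to tail axis. Within a cluster the genes lie in the order in which they act along that axis, from anterior paralogs with low numbers, active as far forward as the hindbrain, to posterior paralogs with high numbers, active in the trunk, the limbs and the tail region. The forebrain and midbrain develop largely without Hox expression. In cells that do not use them, the clusters are held silent by Polycomb complexes, which bind CpG islands that carry little DNA methylation.

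The promoters show how much the clusters vary in CpG content, the substrate that MeDIP reads. RefSeq promoter windows (250 bases before to 50 after the gene start, GRCm38.p6) were at hand for 22 of the 38 listed Hox genes, 24 windows in all. They held 4 to 45 CpG dinucleotides each, with a median of 14.5, against a median of 7.0 over all 32851 promoter windows. The ratio of observed to expected CpG was above 0.6 in 12 of the 24 windows (50.0%) and in 35.4% of all windows. Shown are Hoxa13, the most CpG-rich of the listed windows, Hoxd4, one of the poorest, and Hoxd3, Hoxb4 and Hoxa11, whose islands recur in the results. CpG dinucleotides are in capitals, each sequence runs 5′ to 3′ on the strand of its gene, and the coordinates are those of GRCm38.p6, which differ from the mm9 positions of the probes.
Hoxa13, chr6:52260831-52261130, minus strand, 45 CpG: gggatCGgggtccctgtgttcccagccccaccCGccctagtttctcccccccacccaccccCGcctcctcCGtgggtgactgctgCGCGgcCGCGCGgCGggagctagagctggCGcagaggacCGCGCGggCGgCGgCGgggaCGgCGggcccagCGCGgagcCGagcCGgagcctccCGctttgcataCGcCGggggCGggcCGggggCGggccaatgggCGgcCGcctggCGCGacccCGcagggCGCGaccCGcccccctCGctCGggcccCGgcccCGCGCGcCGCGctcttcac
Hoxa11, chr6:52245761-52246060, minus strand, 15 CpG: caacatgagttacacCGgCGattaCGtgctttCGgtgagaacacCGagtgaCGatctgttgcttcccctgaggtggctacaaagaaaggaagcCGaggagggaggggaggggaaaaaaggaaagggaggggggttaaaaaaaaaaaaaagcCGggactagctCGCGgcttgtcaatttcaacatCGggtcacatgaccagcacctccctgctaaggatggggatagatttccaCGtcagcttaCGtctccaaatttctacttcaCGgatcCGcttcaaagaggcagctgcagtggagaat
Hoxb4, chr11:96318017-96318316, plus strand, 14 CpG: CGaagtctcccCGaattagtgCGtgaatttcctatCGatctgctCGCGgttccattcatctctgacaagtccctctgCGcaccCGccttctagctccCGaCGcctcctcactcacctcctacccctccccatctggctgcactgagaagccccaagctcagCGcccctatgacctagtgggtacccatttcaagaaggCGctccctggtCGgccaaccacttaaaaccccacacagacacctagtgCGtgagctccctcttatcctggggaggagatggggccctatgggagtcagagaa
Hoxd3, chr2:74711743-74712042, plus strand, 20 CpG: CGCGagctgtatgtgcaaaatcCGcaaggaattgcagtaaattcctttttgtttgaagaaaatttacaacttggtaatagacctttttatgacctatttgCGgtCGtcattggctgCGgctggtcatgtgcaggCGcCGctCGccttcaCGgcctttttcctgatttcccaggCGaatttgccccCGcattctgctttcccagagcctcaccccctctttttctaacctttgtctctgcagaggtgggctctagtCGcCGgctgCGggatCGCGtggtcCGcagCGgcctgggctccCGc
Hoxd4, chr2:74721728-74722027, plus strand, 4 CpG: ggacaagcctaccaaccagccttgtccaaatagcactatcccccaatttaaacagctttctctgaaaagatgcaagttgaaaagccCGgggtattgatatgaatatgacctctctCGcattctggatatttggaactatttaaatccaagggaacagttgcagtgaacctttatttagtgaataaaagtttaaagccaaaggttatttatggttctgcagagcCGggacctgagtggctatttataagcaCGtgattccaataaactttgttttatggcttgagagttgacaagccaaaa

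The scanner files give each probe a position but no gene. Tables of the study named 26 of the 428 probes, which placed 13 of the 38 listed Hox genes in 17 islands and Mir615, a microRNA gene that RefSeq places within Hoxc5, in 1 more. These tables hold probes picked by their ratios in the exposure comparisons, so the names were not picked independently of those comparisons, but the values of an island below always cover all its probes. The other 48 islands are described by their neighbours in the RefSeq gene order.

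MeDIP signal was found less often in the Hox clusters than elsewhere. On the male Sham array 177 of 428 Hox probes (41.4%, 95% Wilson interval 36.8 to 46.1) were MeDIP-positive against 51.2% of autosomal probes, and on the female Sham array 218 (50.9%, 46.2 to 55.6) against 58.8%. On the TiO2-H array labelled male it was 73 probes (17.1%, 13.8 to 20.9) against 24.6%, and on the TiO2-H array labelled female 115 (26.9%, 22.9 to 31.3) against 32.9%. The autosomal share lay above the interval of the Hox share on all 4 arrays. These intervals cover the counting of probes, which are neighbours and not independent, and not the spread between pools. The MeDIP-positive rating is not divided by input, and input was dimmer at the Hox probes. Their median Cy3 was 734, 771, 590 and 637 units in the same array order, against 866, 851, 707 and 717 over autosomal probes.

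The clusters differed among themselves. HoxC had the lowest share on every array, with 30.0% MeDIP-positive on the male Sham array, 41.2% on the female Sham array, 5.00% on the TiO2-H array labelled male and 15.0% on the TiO2-H array labelled female. HoxD had the highest, with 52.7%, 60.0%, 22.7% and 35.5% in the same order, close to the autosomal shares. HoxA (39.4%, 50.8%, 19.7% and 26.5%) and HoxB (40.6%, 49.1%, 17.0% and 27.4%) lay between them, and their intervals overlapped on each array. Of the 80 HoxC probes only 4 (5.00%) were MeDIP-positive on all 4 arrays, against 25 of 132 in HoxA (18.9%), 18 of 106 in HoxB (17.0%) and 24 of 110 in HoxD (21.8%). Median Cy3 input differed too, in the same array order, at 755, 774, 599 and 668 units in HoxA and 634, 632, 540 and 565 in HoxB. It was 622, 762, 502 and 606 in HoxC and 872, 899, 725 and 756 in HoxD. How far the shares follow input was not tested.

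**Figure D1:**
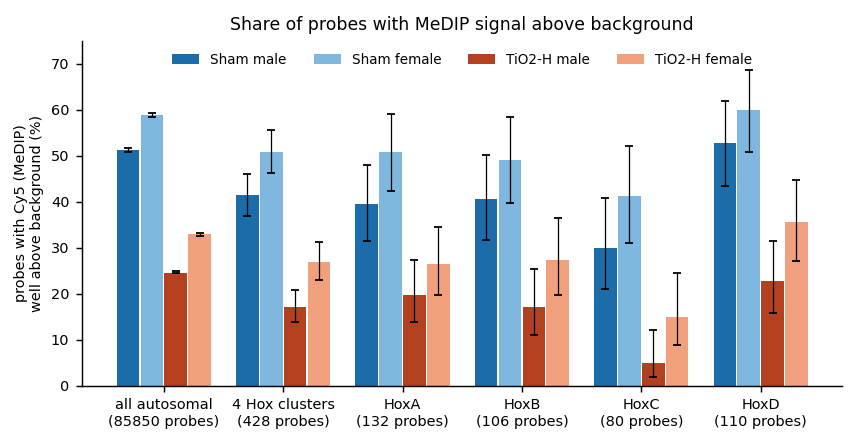
Share of probes with Cy5 well above background (percent, y axis) for all autosomal probes, the 4 Hox clusters together and each cluster (x axis, with the number of probes), 1 bar per array and error bars for 95% Wilson intervals. HoxC has the shortest bar on every array, down to 5.00% on the TiO2-H array labelled male, and HoxD reaches 60.0% on the female Sham array.

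Over all 428 probes, 71 (16.6%) were MeDIP-positive on all 4 arrays and 190 (44.4%) on none, against 24.0% and 35.7% of autosomal probes. No Hox probe was MeDIP-positive on both TiO2-H arrays and neither Sham array, while 43 (10.0%) were so on both Sham arrays and neither TiO2-H array, against 13.0% of autosomal probes. The 71 probes lay in 38 of the 66 islands. Only 4 islands had no MeDIP-positive probe on any array.

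With the processed signals, the level of the Hox probes as a set lay at or below the autosomal middle. The share of Hox probes above the autosomal median was 47.4% (95% Wilson interval 42.7 to 52.2) on the male Sham array, 40.7% (36.1 to 45.4) on the female Sham array, 47.0% (42.3 to 51.7) on the TiO2-H array labelled male and 46.3% (41.6 to 51.0) on the TiO2-H array labelled female. The interval excluded 50.0% only on the female Sham array. After normexp background correction the share was 54.9%, 57.0% and 54.0% on the other 3 arrays in the same order, so the side of the middle depended on the background treatment. By cluster, the median level was -0.41, -0.30, -0.23 and -0.29 in HoxA, 0.11, -0.06, 0.10 and 0.03 in HoxB, -0.34, -0.19, -0.22 and -0.35 in HoxC, and 0.05, -0.11, 0.08 and 0.06 in HoxD, each in the order male Sham, female Sham, then TiO2-H labelled male and labelled female. HoxA and HoxC were below 0 on all arrays. Dim Cy5 leaves many of these levels without a firm value, a limit that the shares of MeDIP-positive probes above do not have. Those shares in turn are not divided by input, so neither measure is free of limits.

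Among the 71 probes that were MeDIP-positive on all 4 arrays, the median level was 1.79 on the male Sham array, 1.13 on the female Sham array, 1.34 on the TiO2-H array labelled male and 1.80 on the TiO2-H array labelled female. Over the 20591 autosomal probes of the same kind it was 1.65, 1.09, 1.09 and 1.70. Levels of these Hox probes went together across arrays, with Pearson's r of 0.85 to 0.97 over the 6 pairs of arrays. Over the autosomal probes of the same kind r was 0.81 to 0.93. Both are descriptions over probes that share 1 probe design and its base composition. Of the 71, 23 (32.4%) had a mean level above 2, against 27.6% of the autosomal probes, and 6 had a mean below 0.

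**Figure D2:**
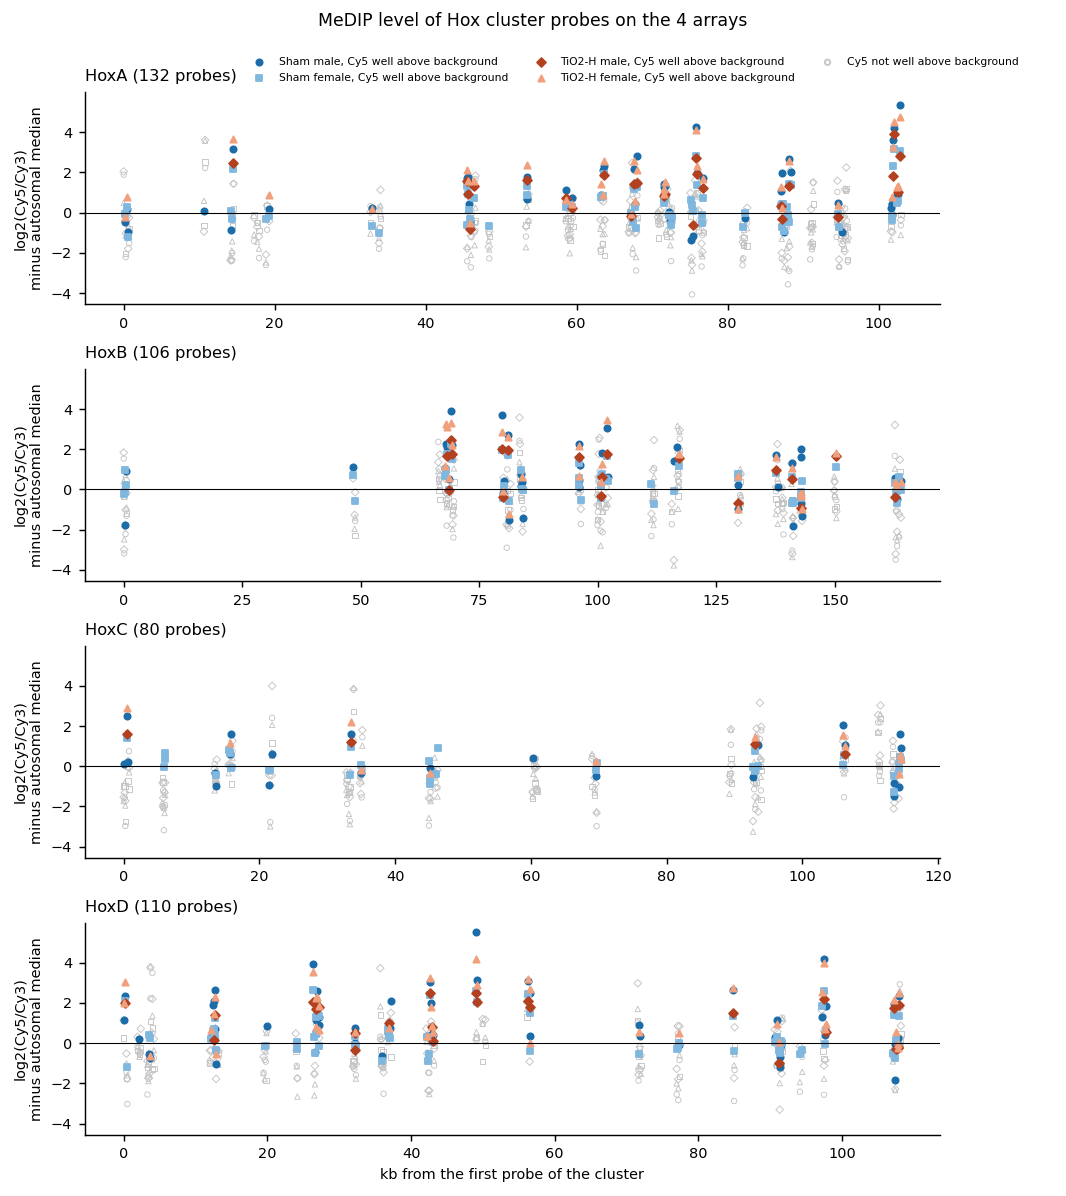
Level of each of the 428 Hox probes (log2 of Cy5 over Cy3 minus the autosomal median, y axis) along each cluster (kb from its first probe, x axis), filled by array where Cy5 was well above background and open grey where it was not. High filled points stand at single sites, such as the last HoxA island, while most probes of HoxC are open, with 42 of 80 MeDIP-positive on no array.

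HoxA held the 2 Hox probes with the highest mean level, both in its last island at chr6:52209894-52211243, beyond the Hoxa11 island. The only listed gene that follows Hoxa11 in the RefSeq order is Hoxa13, a regulator of the limb tips and the urogenital tract. The probe at chr6:52211079-52211123 had levels of 5.37 on the male Sham array, 3.05 on the female Sham array, 2.84 on the TiO2-H array labelled male and 4.76 on the TiO2-H array labelled female. The probe at chr6:52210288-52210332 had 4.23, 3.19, 3.91 and 4.51. Over its 9 probes the island had a median of 0.86, 0.48, 0.87 and 1.28, higher than 80.2% to 89.6% of the 13091 autosomal islands with at least 3 probes, and 4 of the 9 were MeDIP-positive on all arrays.

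Hoxa10, a posterior gene with roles in the uterus, the spine and blood cells, was placed in 2 islands that differed. In the first, chr6:52183340-52185132, with 2 of its probes annotated inside the gene, the probe at chr6:52184077-52184121 had levels of 4.26, 2.82, 2.73 and 4.10, and its neighbour at chr6:52184163-52184207 had 1.97, 1.40, 1.91 and 2.32. These and 1 further probe, of 13, were MeDIP-positive on all arrays. The probe at chr6:52183531-52183582, in the same island, had -4.07, 0.38, -2.60 and -2.88 and was MeDIP-positive on the female Sham array only. The second Hoxa10 island, chr6:52190240-52190907, was the lowest HoxA island of at least 3 probes by mean level, with medians of -1.60, -1.25, -0.50 and -0.86 over 5 probes, none of them MeDIP-positive on all arrays.

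The Hoxa11 island, chr6:52195308-52196638, covers the promoter of a gene that patterns the forearm and the kidney. Its 11 probes had medians of -0.26 on the male Sham array, 0.30 on the female Sham array, -0.62 on the TiO2-H array labelled male and -0.94 on the TiO2-H array labelled female, and ran from probes with 2.69, 1.41, 1.32 and 2.58 (chr6:52196333-52196377) down to probes with -3.57, -0.14, -2.22 and -2.77 (chr6:52196249-52196297). Next lowest after the second Hoxa10 island was chr6:52199199-52199651, between Hoxa11 and the end of the cluster, with medians of -1.67, -0.55, -0.70 and -0.98 and no MeDIP-positive probe. In the middle of the cluster, between the Hoxa5 and Hoxa9 islands, the 4 probes of chr6:52161543-52161939 had medians of 0.13, 0.78, 0.78 and -0.05, of which 1 probe was MeDIP-positive on all arrays, with levels of 1.79, 1.34, 1.61 and 2.38.

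**Figure D3:**
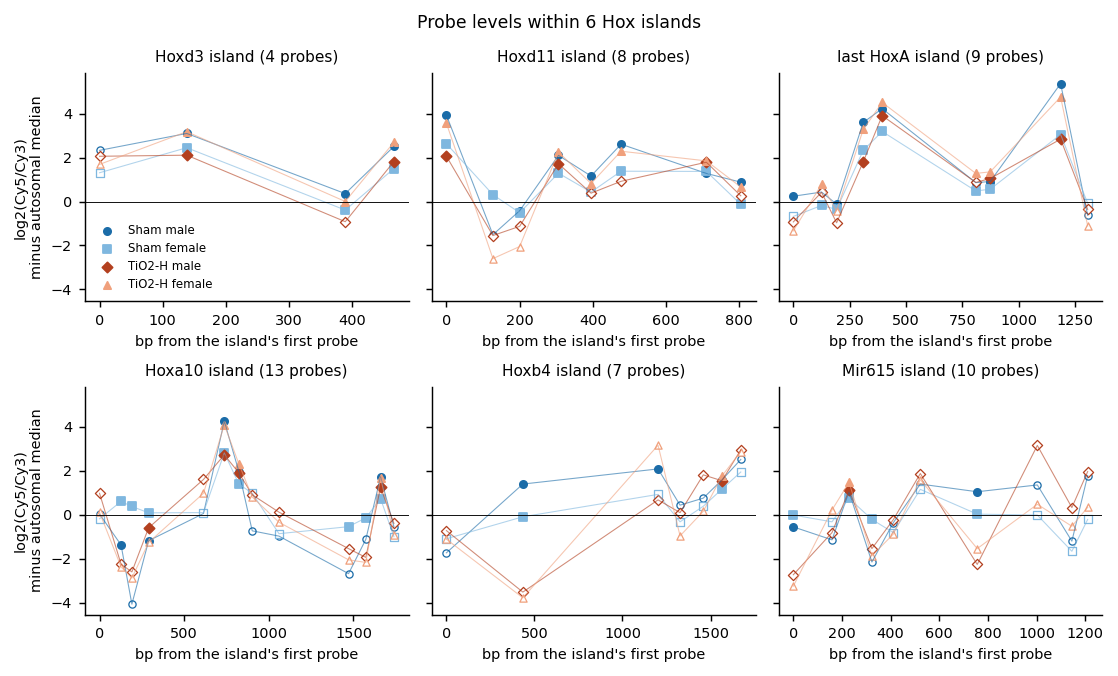
Probe levels (log2 of Cy5 over Cy3 minus the autosomal median, y axis) against the distance from the first probe (bp, x axis) in 6 Hox islands, 1 line and colour per array, filled where Cy5 was well above background. The 4 arrays trace the same peaks in the last HoxA island and the Hoxa10 island (up to 5.37 and 4.26), and in the Hoxb4 island both TiO2-H arrays drop to -3.52 and -3.78 at 1 probe where they are open.

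In HoxB the signal was concentrated in few probes, much as in HoxA (17.0% and 18.9% MeDIP-positive on all 4 arrays). The Hoxb4 island, chr11:96180067-96181798, had the highest mean level of the cluster, with medians of 1.40, 0.39, 0.68 and 0.16 over 7 probes, of which only the one annotated inside Hoxb4 (chr11:96181632-96181676) was MeDIP-positive on all arrays, with 1.59, 1.17, 1.55 and 1.77. Hoxb4 is an anterior paralog known from the hindbrain and from blood stem cells. The Hoxb8 island, chr11:96144310-96146074, had medians near 0 (-0.10, -0.19, 0.11 and 0.07 over 10 probes), yet 2 probes that carried the name Hoxb8, a central paralog active in the spinal cord, stood at 3.73, 1.94, 2.03 and 2.84 (chr11:96144310-96144354) and 2.69, 1.74, 1.97 and 2.62 (chr11:96145448-96145492). The island of chr11:96130826-96131211, between the Hoxb13 and Hoxb8 islands, also ranked high by its medians of 0.69, -0.04, 1.36 and 0.39. None of its 3 probes was MeDIP-positive on any array, so these levels are not firm values. The lowest islands were one of Hoxb3, a gene of the hindbrain segments, at chr11:96205315-96205729, with medians of -1.41, -0.57, -1.42 and -1.31 over 5 probes, and chr11:96112837-96113337, between the Hoxb13 and Hoxb8 islands, with -0.55, -0.59, -0.14 and -1.39 over 3 probes.

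In HoxC even the highest islands had little MeDIP signal. The island at chr15:102857878-102858291, past Mir615 towards Hoxc4, had medians of 1.04, 0.33, 0.59 and 0.60 over 5 probes, with 1 probe MeDIP-positive on all arrays. The one at chr15:102863049-102863445 was higher by mean level (medians of 0.95, 0.87, 1.54 and 0.91 over 4 probes), but 0 of its probes were MeDIP-positive on any array. At the low end, chr15:102757568-102758011, before the Hoxc12 promoter island, had -1.92, -0.04, -1.30 and -1.98 over 5 probes, of which 3 were MeDIP-positive, all on the female Sham array only. The island at chr15:102796847-102798164, between Hoxc12 and Mir615, had -0.93, -0.42, -0.96 and -0.92 over 6 probes.

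HoxD held the highest island of the 4 clusters, which the study's tables assign to Hoxd3, an anterior paralog of the neck vertebrae and the hindbrain. At chr2:74549856-74550366 its 4 probes had medians of 2.42 on the male Sham array, 1.41 on the female Sham array, 1.94 on the TiO2-H array labelled male and 2.20 on the TiO2-H array labelled female, higher than 95.4% to 99.1% of the autosomal islands with at least 3 probes. It was the only Hox island above 95% of them on all 4 arrays. Of its probes, 2 were MeDIP-positive on all arrays, with 3.10, 2.45, 2.11 and 3.18 (chr2:74549994-74550038) and 2.51, 1.50, 1.82 and 2.70 (chr2:74550322-74550366). The other Hoxd3 island, chr2:74578542-74578824, had medians of -1.34, -0.14, 0.79 and -0.55, with 1 of its 3 probes at 2.65, 1.37, 1.52 and 2.73.

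The Hoxd11 island, chr2:74520144-74520992, was high by its medians but mixed from probe to probe. Its medians were 1.22, 0.86, 0.65 and 1.34 over 8 probes, above 80.6% to 90.6% of the autosomal islands. On the female Sham array 8 of 8 were MeDIP-positive, but on the TiO2-H array labelled male 3 were, and 3 were on all arrays. The lowest probe levels were -1.51, -0.51, -1.55 and -2.60 in the same array order. Hoxd11 is a posterior paralog that shapes the forearm, as Hoxa11 does. Next to it, chr2:74517683-74517945 was among the lowest of the cluster, with -1.13, -0.27, 0.04 and -1.16 over 3 probes, and so was chr2:74525651-74526090 on its other side, with -1.16, -0.20, -0.35 and -0.67 over 5 probes. The Hoxd4 island, chr2:74565292-74565766, had medians of 0.37, -0.54, -0.61 and 0.36 over 5 probes, none MeDIP-positive on all arrays. Hoxd4 is, like Hoxb4, an anterior paralog of the hindbrain.

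High and low probes often stood side by side. Between neighbouring Hox probes of an island whose starts lay at most 200 bp apart and that were both MeDIP-positive, the median difference in level was 1.03 over 61 pairs on the male Sham array, 0.57 over 100 pairs on the female Sham array, 0.92 over 9 pairs on the TiO2-H array labelled male and 1.04 over 27 pairs on the TiO2-H array labelled female. Over all autosomal neighbours it was 1.10, 0.58, 0.72 and 0.91. Per the labels, the sheared fragments were mainly longer than this distance.

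By paralog class, as far as the RefSeq order gave one, the probes that were MeDIP-positive on all arrays numbered 18 of 84 probes (21.4%) in the 15 anterior islands (paralogs 1 to 4), 7 of 20 (35.0%) in the 2 central islands (5 to 8) and 23 of 147 (15.6%) in the 20 posterior islands (9 to 13). The 29 islands that could belong to several classes had 23 of 177 (13.0%). The central class is the islands of Hoxa5 and Hoxb8 alone, so no order along the axis was read from these shares.

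The study asked whether TiO2 exposure before birth shifted methylation in each sex, and compared the arrays by fold. A probe was measured in a comparison where both arrays had Cy3 well above background, at least 1 of them had Cy5 well above it and the single-spot p-value of the log ratio was under 0.05 on at least 1. It counted as higher at a fold of 1.5 or more and as lower at 0.67 or less. With 1 array a side these counts have no test. The rule admits probes that are MeDIP-positive on 1 array alone. Fewer probes were MeDIP-positive on the TiO2-H arrays, so the exposure counts are tilted towards falls.

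In the male comparison nearly all changed Hox probes were lower on the TiO2-H array. Of 135 measured Hox probes 84 (62.2%) were lower and 1 (0.741%) was higher, with a median log2 fold of -0.72. Of the autosomal probes 56.0% were lower and 3.14% higher, with a median of -0.68. The clusters had like shares of lower probes, 26 of 42 in HoxA (61.9%), 20 of 31 in HoxB (64.5%), 11 of 18 in HoxC (61.1%) and 27 of 44 in HoxD (61.4%). In 49 of the 84 falls (58.3%, against 45.2% of autosomal falls), 1 of the arrays lacked Cy5 well above background. Among islands with at least 3 measured probes, 16 of 21 Hox islands (76.2%) were lower and 0 higher, against 60.9% and 0.594% of autosomal islands.

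In the female comparison Hox probes went both ways. Of 170 measured, 78 (45.9%) were lower and 53 (31.2%) higher, against 36.3% and 28.8% of autosomal probes. The median log2 fold was -0.26 against -0.10. Direction went with brightness, in Hox and autosomal probes alike, but the rule for measured probes partly builds this in. On the female Sham array 58.8% of autosomal probes were MeDIP-positive, against 32.9% on the TiO2-H array labelled female. A probe bright on the Sham array alone tends to come out lower, and a demand for both arrays bright leaves such falls out. Of the 53 higher Hox probes 49 (92.5%, against 96.8% of autosomal rises) were MeDIP-positive on both arrays, and 74 of the 78 lower ones (94.9%, against 89.7%) were not. Of the 76 Hox probes that were MeDIP-positive on both arrays, 49 were higher (64.5%, against 53.7%) and 4 lower (5.26%, against 7.21%). HoxC had the most falls for its rises, 16 lower and 4 higher of 28, against 21 and 19 of 50 in HoxA, 20 and 11 of 40 in HoxB and 21 and 19 of 52 in HoxD. At the level of islands 10 of 25 (40.0%) were lower and 7 (28.0%) higher, against 32.7% and 17.1% of autosomal islands.

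The split in the female comparison depended on the scaling. Lower probes made up 59.5% of the changed Hox probes in the main setting, 83.5% without centring, 79.3% after quantile normalization, 89.2% with all arrays brought to 1 common spread, 80.8% after loess and 86.7% after normexp, and the autosomal split moved likewise, from 55.8% to between 82.7% and 89.9%. With the common spread, 9 Hox probes were higher and 74 lower. The female Sham array is the one with the narrow spread. In the male comparison the share of lower probes was between 90.6% and 100% of changed Hox probes under the same settings. After loess it was 90.6%, against 74.5% of changed autosomal probes. Under the other settings the autosomal share was between 90.2% and 99.7%.

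Arrays of the same exposure also differed at most measured Hox probes. Between the Sham arrays, 132 of 185 measured Hox probes (71.4%) were past the same thresholds, against 65.0% of autosomal probes, and between the TiO2-H arrays 64 of 89 (71.9%), against 64.7%. Of these 64, 63 were higher on the TiO2-H array labelled female. The male and female comparisons had 63.0% and 77.1% of Hox probes past the thresholds. Crossed by X-linked input, the TiO2-H array labelled female differed from the male Sham array at 46 of 136 Hox probes (33.8%, against 32.4% of autosomal probes), 12 higher and 34 lower. The TiO2-H array labelled male differed from the female Sham array at 86 of 159 (54.1%, against 49.6%), 4 higher and 82 lower. These pairs share arrays with the comparisons by label, so they are other views of the same 4 arrays.

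**Figure D4:**
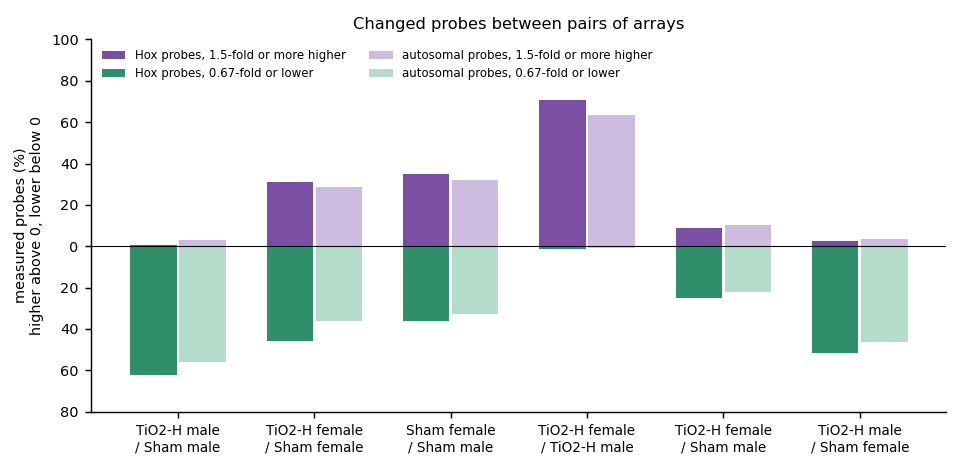
Percent of measured probes that were at least 1.5-fold higher (bars above 0) or at 0.67-fold or lower (bars below 0) on the first array of each pair against the second, for Hox probes (dark) and autosomal probes (light). Hox and autosomal bars are of like height in each pair, and the 2 TiO2-H arrays differ from each other (70.8% of Hox probes higher) more than the TiO2-H array labelled female differs from the male Sham array.

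With at least 3 measured probes in both comparisons, 18 Hox islands could be followed across both. In 4 of them (22.2%) both medians were lower, against 14.4% of autosomal islands, in 0 both were higher, against 0.118%, and in 5 (27.8%) the male median was lower and the female median higher, against 15.3%. Folds that rest on a dim Cy5 signal are given as bounds, after that signal was raised to the lowest Cy5 rated well above background on its array, and no fold is given where this removed the direction.

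The largest falls in both comparisons were in the island of Mir615 and in 2 HoxB islands. The Mir615 island, chr15:102844615-102845882, had medians of 0.34 on the male Sham array, -0.11 on the female Sham array, 0.05 on the TiO2-H array labelled male and -0.15 on the TiO2-H array labelled female over its 10 probes. The measured probes had a median log2 fold of -2.18 in the male comparison, where the bound lost the direction, and of -1.61 in the female comparison, a fall of at least 1.18-fold. Its probe at chr15:102844844-102844888, annotated as the Mir615 promoter and MeDIP-positive on all arrays, had 1.05, 0.75, 1.12 and 1.48. In chr11:96227128-96228419, between Hoxb2 and Hoxb1, the male comparison gave a fall of at least 1.91-fold over 3 probes, and the female one lost its direction. In chr11:96164398-96166610, between Hoxb8 and Hoxb4, the 3 probes measured in the male comparison were bright on both arrays and 2.30-fold lower, but after loess the median log2 fold was 0.11 and after normexp -0.56, neither past the threshold. The female comparison lost its direction there. After normexp the male folds of the Mir615 island (-0.08) and of the island between Hoxb2 and Hoxb1 (-0.22) did not reach 0.67 either.

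Among the other named islands, the bounds removed or shrank several of the folds. The Hoxa11 island was lower in both comparisons (median log2 fold -1.04 over 6 probes and -0.96 over 9), but the bounds came to at least 1.03-fold in the male comparison and to no direction in the female one. The first Hoxa10 island was at -0.48 over 5 probes in the male comparison, a difference of at least 1.04-fold that did not reach 0.67, and at -1.43 over 8 in the female one, with no direction once bounded. The Hoxb8 island missed the threshold in the male comparison (0.676-fold over 4 probes, at least 1.38-fold lower) and was 1.52-fold higher in the female one, over 4 probes that were all bright. Under the 5 other scalings and corrections that female log2 fold of 0.60 lay between -0.77 and 0.09, past the threshold in 0 of them. The Hoxd3 island was lower by at least 1.76-fold in the male comparison and 1.67-fold higher in the female one, over 3 probes each. Under the same 5 alternatives the female log2 fold of 0.74 lay between -0.26 and 0.45, so the rise of this median was lost in each, and the fall held in 1. These alternatives are given for the island median, not for single probes. In the main setting the probe that the study names Hoxd3 there had a female log2 fold of 1.20, and the others 0.74 and 0.40. In the Hoxd4 island only 1 and 2 probes were measured, too few for an island value.

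**Figure D5:**
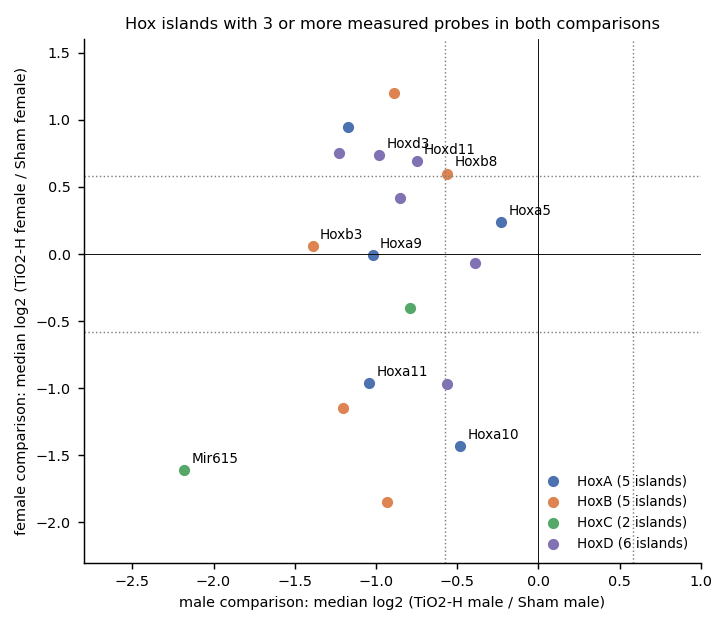
Median log2 fold of the 18 Hox islands with at least 3 measured probes in both comparisons, male comparison on the x axis and female comparison on the y axis, coloured by cluster, with dotted lines at 1.5-fold and 0.67-fold and the placed genes named. All 18 lie left of 0 in the male comparison and reach from -1.85 to 1.20 in the female comparison.

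Across both sexes limma, on 160 Hox probes among the 39861 autosomal probes that had Cy3 well above background on every array and were MeDIP-positive on at least 2, called 1 Hox probe (0.625%, against 0.0928% of all probes tested). It lies in the Hoxb4 island at chr11:96180501-96180545 and entered the fit through the Sham arrays alone. The filter was open to the 43 Hox probes that were MeDIP-positive on both Sham arrays and neither TiO2-H array, and 0 were of the reverse kind. The fit was thus tilted towards falls, and its calls do not weigh falls against rises evenly. The levels of the called probe were 1.40 on the male Sham array, -0.09 on the female Sham array, -3.52 on the TiO2-H array labelled male and -3.78 on the TiO2-H array labelled female, so both TiO2-H arrays lay below both Sham arrays. The log2 difference was -4.30 with an SE of 0.59 and a 95% interval from -5.56 to -3.05 (limma, adjusted p = 0.0105). Processed Cy5 was 7407 and 3067 units on the Sham arrays against 172 and 114 on the TiO2-H arrays, where it was not well above background, while Cy3 was 4245 and 4134 against 2807 and 2835. As a bound on the group means, the probe was at least 3.99-fold lower on the TiO2-H arrays, at least 6.18-fold in the male pair and at least 2.58-fold in the female pair.

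No other probe of the Hoxb4 island was called. Of the other 6, the one inside Hoxb4 was MeDIP-positive on all arrays and had a log2 fold of -0.04 between the male pair of arrays and of 0.60 between the female pair. The call of the Hoxb4 island probe itself was lost with X-linked input as a block, where the lowest limma adjusted p of a Hox probe was 0.101, without centring (0.0924), after normexp (0.487) and after loess (0.551). Next in order were 2 probes of the Mir615 island. At chr15:102844615-102844659 the levels were -0.55, -0.01, -2.73 and -3.25 (log2 difference -2.71, limma adjusted p = 0.0911), and at chr15:102845371-102845415 they were 1.05, 0.03, -2.26 and -1.54 (-2.44, limma adjusted p = 0.154). Neither passed, and on both the Cy5 signal of the TiO2-H arrays was not well above background.

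At an unadjusted p under 0.05, limma gave 9 of 160 Hox probes (5.62%), all lower, against 5.45% of all probes tested. Under the same filter, 2130 of all those probes were lower and 42 higher. Both TiO2-H arrays lay below both Sham arrays at 27 Hox probes (16.9%, against 18.2% of all tested) and above them at 8 (5.00%, against 7.62%). The median log2 difference was -0.12 over the Hox probes and -0.13 over all. Among the 71 Hox probes that were MeDIP-positive on all arrays limma, fitted on probes of that kind, called 0, against 0.00486% of the 20584 tested, and 0 had an unadjusted p under 0.05, against 1.29%. At the latter rate, 0 of 71 is near the background.

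Genes that act with or on Hox genes were read from lists set beside the clusters, on the islands that the study's tables name. Those tables hold probes picked by their ratios in the exposure comparisons, so the genes placed were not picked independently of the counts below. Of 48 listed genes 20 could be placed, with 244 probes. Limma called 0 of their 113 tested probes, against 0.0928% of all probes tested, so 0 is near the background. Beside the counts below, 56.0% of measured autosomal probes were lower and 3.14% higher in the male comparison. In the female comparison 36.3% were lower and 28.8% higher. Of the 9 TALE homeodomain cofactors, which bind DNA together with Hox proteins, Meis1, Pbx3 and Pknox2 were placed, with 5 lower and 1 higher of 12 probes measured in the male comparison and 4 lower and 3 higher of 14 in the female one. Of the 13 Polycomb genes 6 were placed, with 12 lower and 1 higher of 35 and 13 lower and 16 higher of 39. Ezh2, which encodes the enzyme that methylates H3K27, had medians of -0.64, -0.26, -0.12 and -0.65 over 10 probes, and Jarid2, a partner that guides the complex, had 1.23, 1.17, 1.09 and 1.56 over 19 probes. Of the 7 Trithorax and H3K27 demethylase genes, which oppose Polycomb, 3 were placed, with 4 lower and 0 higher of 12 in the male comparison and 11 lower and 2 higher of 16 in the female one. Kdm6b, an H3K27 demethylase, gave 9 of the 11 falls.

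The retinoic acid genes, through which anterior genes of the clusters are switched on, had 2 of 8 placed (Rarg and Cyp26b1), with 4 lower and 0 higher of 8 probes and 6 lower and 0 higher of 12. Of the 11 upstream and ParaHox genes 6 were placed, with 14 lower and 2 higher of 28 and 18 lower and 9 higher of 37. Cdx2, which switches on central Hox genes, had medians of -0.16, -0.43, 0.17 and 0.17 over 18 probes, and Egr2, which marks hindbrain segments and activates Hox genes there, had 0.28, 0.50, 0.13 and 0.31 over 25. Over the 5 lists 41.1% of probes measured in the male comparison were lower, where the background was 56.0%, and 44.1% in the female comparison, where it was 36.3%. Since genes were placed through these comparisons, their shares cannot be weighed evenly against that background.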

How the data were processed

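Pooled brain DNA of 4 groups was hybridised to 1 two-colour Agilent CpG island array each, with MeDIP DNA in Cy5 and input DNA in Cy3 and no dye swap. Per the file headers, the authors extracted the arrays with Agilent Feature Extraction. The deposited processed signals are linear intensity values, background-subtracted and scaled per dye, and the deposited median spot and background intensity values are raw. The deposited log10 ratio has a deposited single-spot p-value, and the log10 ratios of the series table equalled those of the scanner files within 5.0e-10. Positions are on mm9 and RefSeq sequences on GRCm38.p6, so only gene order and names were taken across.

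Control spots (5950 per array) and outlier-flagged probes (12) were left out. Log2 ratios of processed signals were centred on the autosomal median, without loess or quantile normalization. The rules for measured probes, thresholds and bounds are given with the results. The fit used limma 3.58.1 in R 4.3.3 (lmFit, eBayes, 2 TiO2-H against 2 Sham arrays, Benjamini-Hochberg adjustment, no sex term). Tested on simulated data for this fit on 39861 probes, of 200 changed probes it called 0 at a log2 change of 1, 0 at 2 and 123 at 3. No mean spot signal was at hand, so the normexp alternative (offset 50) used the medians.

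The islands described in full were the 2 highest and 2 lowest of each cluster by mean level, the 3 largest rises and falls past the thresholds in both comparisons, those of Hoxd3, Hoxa10, Hoxa11, Hoxb8 and Hoxd4, and any called probe. The mean-level probes of the last HoxA island, the Mir615 promoter probe and single probes inside islands were picked after their values were seen. The cluster windows, gene lists and tests were chosen with earlier results of these data known. Figures and counts used Python 3.11.15.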

Additional observations from a re-analysis of the deposited data

Results flagged for a closer look

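In 5 Hox islands the median fold was at or below 0.67 in the male comparison and at or above 1.5 in the female comparison. Each group is 1 pooled array, so the difference between the comparisons was not tested. Island folds were taken by label only, and X-linked input went against both TiO2-H sex labels. Arrays of the same exposure also differed at these islands. The log2 fold of labelled female over labelled male was -1.04 between the Sham arrays and 1.04 between the TiO2-H arrays in the last HoxA island. It was -0.99 and 1.14 before Hoxb8, -1.33 and 1.15 before Hoxd11, -0.73 and 0.95 at Hoxd11 and -0.75 and 0.92 at Hoxd3. The last HoxA island, chr6:52209894-52211243, was at least 1.25-fold lower and at least 1.93-fold higher, a female minus male difference of 2.12 in log2 fold. In chr11:96132319-96134154, before the Hoxb8 island, 4 probes each were at least 1.35-fold lower and 2.29-fold higher, a difference of 2.09. In chr2:74505717-74506960, before the Hoxd11 island, they were at least 1.57-fold lower and 1.68-fold higher, a difference of 1.98. The Hoxd3 island differed by 1.72 and the Hoxd11 island by 1.44, the latter at least 1.49-fold lower and at least 1.61-fold higher. These female rises depended on the scaling. Under 5 alternatives (no centring, quantile normalization, a common spread, loess and normexp) the female median log2 fold of the last HoxA island went from 0.95 to between -0.43 and 0.44, that before the Hoxd11 island from 0.75 to between -1.11 and 0.31, that of the Hoxd11 island from 0.69 to between -0.65 and 0.18 and that of the Hoxd3 island from 0.74 to between -0.26 and 0.45, past 1.5-fold in 0 of 5 for each. The island before Hoxb8 went from 1.20 to between -0.16 and 0.69 and stayed past 1.5-fold in 1 of 5. The same pattern held in 15.3% of autosomal islands, and the female Sham array had the narrowest spread of log2 ratios (0.60).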

How the results depend on the processing

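The number of changed Hox probes moved with most of the settings tried. In the male comparison it was 85 in the main setting, 63.0% of measured Hox probes against 59.2% of autosomal ones. It was 32 after loess (23.7%, against 21.5%), 24 after normexp (17.8%, against 19.4%) and 36 among probes MeDIP-positive on both arrays (55.4%, against 62.4%). With no filter on signal or p-value it was 247 (57.7%, against 56.8%). It was 45 at a 2-fold threshold (33.3%, against 33.3%) and 46 with arrays crossed by X-linked input (33.8%, against 32.4%). In the female comparison it was 131 in the main setting, 77.1% of measured Hox probes against 65.1% of autosomal ones. It was 82 after quantile normalization (48.2%, against 42.3%) and 83 with a common spread (48.8%, against 48.7%). After loess it was 73 (42.9%, against 39.1%) and after normexp 98 (57.6%, against 51.3%). It was 53 among probes MeDIP-positive on both arrays (69.7%, against 60.9%) and 250 with no filter (58.4%, against 55.2%). At 2-fold it was 82 (48.2%, against 40.5%) and crossed 86 (54.1%, against 49.6%). The share of lower probes fell from 59.5% to 7.55% with Cy5 on both arrays in the female comparison and from 98.8% to 43.3% with no filter in the male one. The autosomal share moved likewise, from 55.8% to 11.8% and from 94.7% to 50.8%. The count of Hox probes called by limma was 1 in the main setting, where 37 of all 39861 probes tested were called. It was 0 without centring, after loess, after normexp, among probes MeDIP-positive on all 4 arrays and with X-linked input class as a block. It was 3 after quantile normalization, with 228 called over all probes tested, and 3 with a common spread, with 492 called over all. With slide as a block and with no filter on dim probes it was 1. Without each array in turn it ranged from 1 to 3, with 3 without the male Sham array and 3 without the female Sham array; in these fits the lone array of a group is assumed to vary like the others. The share of Hox probes above the autosomal median rose after normexp to 54.9% on the male Sham array, 57.0% on the TiO2-H array labelled male and 54.0% on the TiO2-H array labelled female, so its side of 50.0% is not settled, and it stayed within the main interval under the other alternatives. Alternatives for single islands were chosen after seeing the data. In the female comparison the median log2 fold of islands higher in the main setting turned negative as follows. The Hoxd11 island was at -0.18 after quantile normalization, -0.65 with a common spread and -0.13 after loess. The Hoxb8 island was at -0.27 with a common spread, -0.26 after loess and -0.77 after normexp. The Hoxd3 island was at -0.13 after loess and -0.26 after normexp, the last HoxA island at -0.43 with a common spread and -0.08 after loess, the island before Hoxb8 at -0.16 with a common spread, and the island before Hoxd11 at -0.44 after loess and -1.11 after normexp. In the male comparison the island between Hoxb8 and Hoxb4 turned to 0.11 after loess. The cause was not tested. The dim MeDIP channel of the TiO2-H arrays limits all falls to bounds at probes without Cy5 signal there.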
